A study of Mus musculus with 31 samples.

Results

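Hypoxia-ischemia (HI) in the newborn mouse, produced in the Rice–Vannucci model by closing a carotid artery and lowering the oxygen of the air, injures the hemisphere on the side of the ligature. Neurons and glia answer within hours with immediate early genes such as Fos and Atf3, transcription factors that stressed or strongly stimulated cells switch on. Microglia, astrocytes and entering leukocytes then raise chemokines such as Ccl3, Ccl4 and Cxcl10, small secreted proteins that attract immune cells, and Cxcl10 also belongs to the interferon-induced genes.

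Of the 31 two-colour arrays of the series, 12 carried Cy5-labelled RNA of injured mice, and these Cy5 channels were compared here. They were chosen by title. The 6 RV PBS arrays hold HI in Cy5 and uninjured mice in Cy3, and the 6 RV Mg arrays hold, by title and source, HI after MgSO4 in Cy5 and uninjured mice given MgSO4 in Cy3. Each title has 3 arrays at 3 h and 3 arrays at 12 h after the insult. All animals were NMRI mice injured or sampled at the age of 5 days. Injured animals had the right carotid artery closed permanently, MgSO4 was given at 600 mg/kg, and each sample was RNA pooled from 6 hemispheres without olfactory bulb (3 males and 3 females by the labels, sex-matched by the methods). The labels give subcutaneous injection and PBS for the remaining animals, whereas the methods give intraperitoneal injection and untreated controls.

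The sources do not agree on which RNA the RV Mg arrays carry. By labels and methods, mice given MgSO4 before HI (MgHI) are in Cy5. For Cy3 of these arrays the label is uninjured mice given MgSO4, whereas the methods compare MgHI with HI, which makes the Cy3 sample injured. The study's design drawings put HI without MgSO4 in Cy5 and MgHI in Cy3 of the same arrays, and the treatment label of the RV PBS Cy5 samples names MgSO4 although their title and source do not. The comparison therefore asked how far the Cy5 RNA of the RV Mg arrays differed from the Cy5 RNA of the RV PBS arrays. Every array carried the test RNA in Cy5, and no dye swap was made. A difference between titles can be read without a dye effect that all arrays share.

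Levels are given as the log2 of the dye-normalized Cy5 signal minus the 75th percentile of that signal on the same array, so that 0 is the level of a fairly bright probe and a step of 1 is a factor of 2. A difference is RV Mg minus RV PBS on this scale. A probe was called when its difference, tested with limma with time as a block, had a Benjamini-Hochberg adjusted p under 0.05 and reached 1.5-fold (0.585 on the log2 scale). Signal over background was similar in both titles, with 60.3% to 66.5% of spots well above background in Cy5 of the RV PBS arrays and 63.1% to 68.4% in Cy5 of the RV Mg arrays, and no spot was saturated (0). The 12 arrays lay on 3 slides of 4 arrays, on which the RV PBS and RV Mg arrays of equal time and replicate number were neighbours. The labels name biological replicates, and the paper calls its experiments independent. Neither says outright whether equally numbered samples of both titles came from separate animals, so that the p-values measure the spread between these arrays.

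The genes that mark the injury were at injury level in both sets of Cy5 channels. Fos, a subunit of the AP-1 transcription factor, had Cy5 levels of 2.62, 3.15 and 2.10 on the RV PBS arrays at 3 h. On the RV Mg arrays at 3 h its levels were 2.54, 3.28 and 2.19. At 12 h the levels were -2.20, -0.39 and -2.19 for RV PBS and -2.06, -0.16 and -1.87 for RV Mg. The values of both titles overlapped at each time, and the difference was 0.13 (SE 0.40, limma adjusted p = 0.852). In the Cy5 channel of the uninjured mice given MgSO4, hybridized on other slides, Fos stood at -3.53 ± 0.25 at 3 h and -3.99 ± 0.56 at 12 h (SD, n = 4).

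Ccl4 gave the same picture for the chemokines. Its Cy5 levels were 0.58, -0.84 and -0.56 (3 h) and -0.32, 0.54 and -0.42 (12 h) on the RV PBS arrays. The RV Mg arrays had 0.27, -0.98 and -0.66 at 3 h and -0.79, 0.49 and -0.58 at 12 h. The difference was -0.20 (SE 0.32, limma adjusted p = 0.701). The other injury genes were as close, with differences of -0.09 (SE 0.20) for Fosb, 0.21 (SE 0.31) for Atf3, -0.03 (SE 0.28) for Ccl3, 0.25 (SE 0.28) for Cxcl10 and -0.0033 (SE 0.27) for Ccl2, which attracts monocytes. None of these passed the test, with limma adjusted p from 0.571 for Cxcl10 to 0.995 for Ccl2.

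The Cy3 channels of the same arrays held a contrast for the same genes. In Cy3 of the RV PBS arrays, labelled as uninjured mice, Fos had a mean of -2.90 ± 0.16 at 3 h and -4.27 ± 0.07 at 12 h (SD, n = 3). In Cy3 of the RV Mg arrays, named by title and source as uninjured mice given MgSO4, it had 2.48 ± 0.21 and -2.23 ± 1.25. The Cy3 difference between titles was 3.71 for Fos, 2.23 for Atf3, 4.12 for Ccl4 and 4.69 for Cxcl10, each called (75 of 18663 probes, 0.402%, were called in Cy3, 2 with the replicate block and between 3 and 367 with an array left out). For these genes the library labelled as uninjured mice given MgSO4 thus stood at the level of the injured pools, against its title and as the methods describe it. On the RV PBS arrays Cy5 exceeded Cy3 by 4.10 for Fos, 2.59 for Atf3, 4.17 for Ccl4 and 5.03 for Cxcl10, while on the RV Mg arrays the same ratios were 0.52, 0.57, -0.16 and 0.59, of which none was called. Between the channels of the RV Mg arrays 1485 of 19081 probes were called in all (7.78%).

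**Figure D1:**
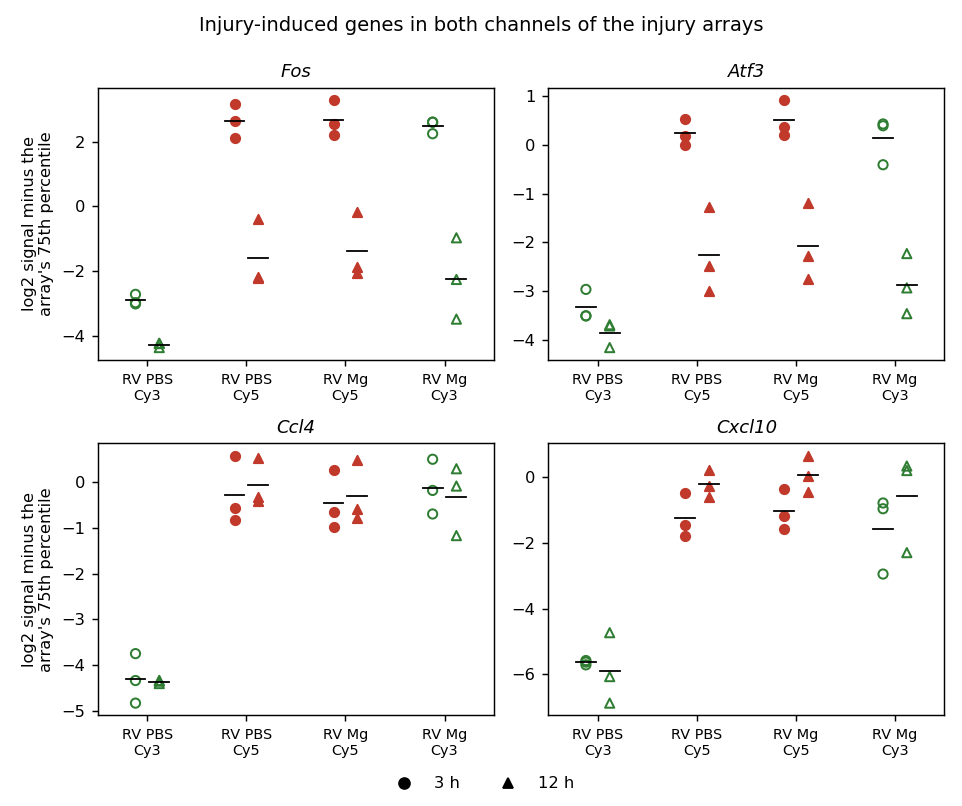
Level (log2 signal minus the array's 75th percentile) of Fos, Atf3, Ccl4 and Cxcl10 in each channel of the 12 arrays. Points are arrays (circles 3 h, triangles 12 h), bars are means, filled red symbols are Cy5 and open green symbols are Cy3. Cy5 of RV PBS, Cy5 of RV Mg and Cy3 of RV Mg lie together, and Cy3 of RV PBS lies below them at both times.

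Replicate numbers tied the Cy5 pools of both titles to each other. On the RV Mg and RV PBS arrays of the same number and time, injury genes that varied strongly among replicates varied by nearly the same amount. Npas4, a transcription factor induced by neuronal activity, had 0.15, 2.27 and 0.38 in RV PBS Cy5 at 3 h and 0.14, 2.25 and 0.45 in RV Mg Cy5. At 12 h it had -1.37, 0.16 and -1.06 in RV PBS and -1.68, -0.03 and -1.22 in RV Mg. Il1b, a cytokine of activated microglia, had -4.84, -6.75 and -5.24 in RV PBS and -4.95, -6.93 and -5.46 in RV Mg at 3 h. Its 12 h levels were -4.68, -3.23 and -5.22 in RV PBS and -4.99, -3.14 and -5.12 in RV Mg. In both genes the array of replicate 2 was the extreme one in either title, low for Il1b and high for Npas4 at 3 h, and the replicate spread (SD within title and time) of about 1.00 to 1.07 on the log2 scale fell to 0.06 for Npas4 and 0.17 for Il1b once the arrays of a number were subtracted from each other.

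The same held over the 35 immediate early, chemokine and cytokine genes that passed the filter. Their deviations from the mean of title and time correlated at r = 0.91 across genes and pairs between RV Mg Cy5 and RV PBS Cy5 of the same number. With the next number in place of the same number the correlation was -0.51, and with the number after that -0.40, values that centring on 3 arrays pushes below 0. The spread of the 35 genes was 0.59 within RV Mg Cy5 and 0.56 within RV PBS Cy5. The difference between arrays of the same number had a spread of 0.24, where deviations that do not move together would give 0.81. In 31 of the 35 genes the spread of that difference was below the spread within either title.

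The exceptions were Ccl5, Cxcl16, Junb and Nr4a2. Il6, a cytokine with low levels here, was not among them but kept a large pair spread of 0.86 against 1.03 within RV PBS. Over all 14499 genes with complete values, by their brightest probe, the same correlation was 0.38, with spreads of 0.34 and 0.33 within titles and 0.37 for the difference. These points share slides, and genes are not independent replicates, so no p is given.

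Other channels were less closely tied over the 35 genes. RV Mg Cy3 and RV PBS Cy5 of the same number correlated at 0.55, with a difference that spread by 0.59 where unrelated deviations would give 0.87. Both channels of an RV Mg array correlated at 0.61, both channels of an RV PBS array at 0.11, and both Cy3 channels of a number at 0.05. Over all genes, channels of the same array were the closest, at 0.69 for RV Mg and 0.60 for RV PBS. Whether equally numbered Cy5 channels held RNA of the same animals, of litter mates or of mice treated side by side was not tested.

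**Figure D2:**
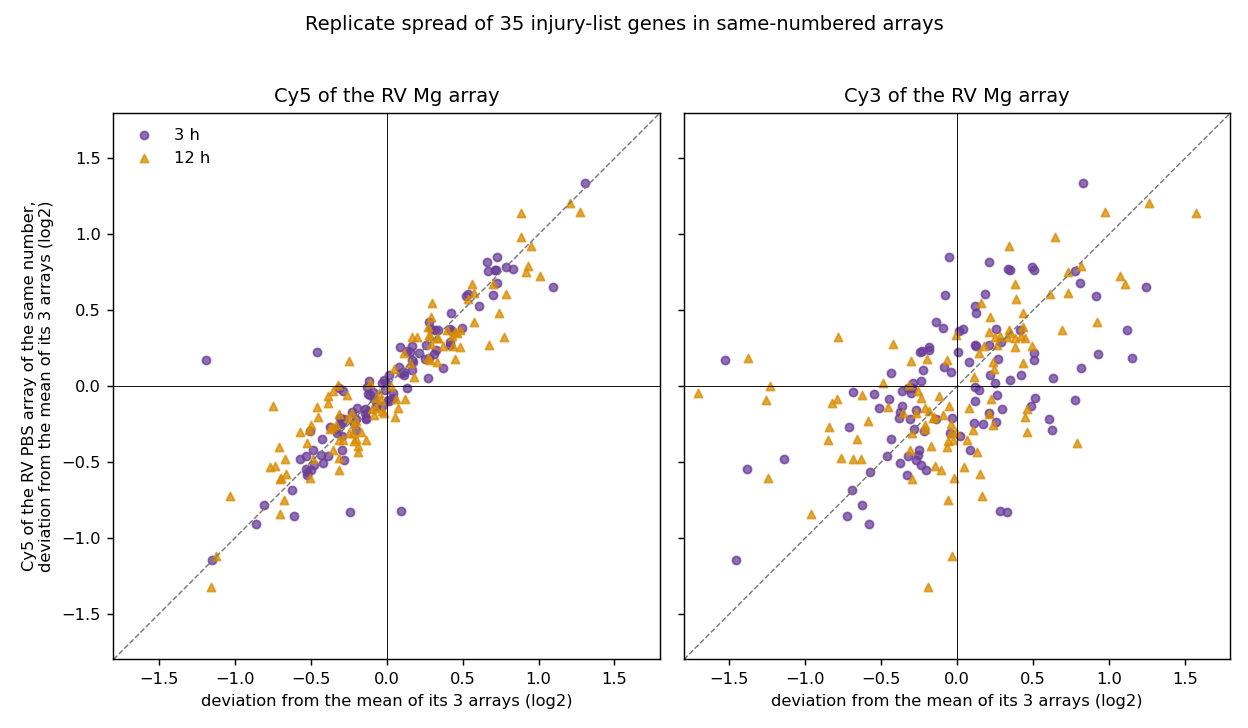
Each point is a gene on a pair of same-numbered arrays, for 35 immediate early, chemokine and cytokine genes (circles 3 h, triangles 12 h). The vertical axis is the deviation of RV PBS Cy5 from the mean of its 3 arrays (log2), the horizontal axis that of RV Mg Cy5 (left) or RV Mg Cy3 (right), and the dashed line marks equal deviations. The Cy5 points follow the line (r = 0.91), and the Cy3 points scatter around it (r = 0.55).

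With the replicate number as a block in limma, the errors of the injury genes became small. The median SE of the 35 genes was 0.25 without the block and 0.07 with it. The 95% interval of the difference then ran from -0.01 to 0.28 for Fos, from -0.25 to 0.04 for Npas4, from -0.12 to 0.12 for Ccl2, from -0.20 to 0.15 for Ccl3 and from -0.36 to -0.04 for Ccl4. In 28 of the 35 genes this interval lay wholly within 1.5-fold in either direction, against 6 genes without the block. Over all probes tested the share was 73.3% with the block and 64.3% without it.

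The blocked fit also resolved small differences that the main fit did not. With the block, 13 of the 35 genes had a limma adjusted p under 0.05. Among them were Cxcl10 at 0.25 (interval 0.11 to 0.39) and Atf3 at 0.21 (0.09 to 0.34), both higher in RV Mg in 6 of 6 pairs. Over all probes, 7066 of 18962 (37.3%) kept 1 sign in all 6 pairs, so this trait is common. Without the block 3263 of all 18962 probes had an adjusted p under 0.05. The count over all probes with the block was not taken, so the 13 stand without a background. Ccl12, a monocyte chemokine, differed by -0.45 and Ccl9 by -0.42. Of these 13 genes 2 reached 1.5-fold, Ier2 and Junb.

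Ier2 and Junb, both immediate early genes, were the called members of the injury lists. Ier2 had Cy5 levels of -3.11, -2.59 and -3.35 (RV PBS, 3 h), -1.55, -1.29 and -1.86 (RV Mg, 3 h), -4.31, -4.21 and -4.91 (RV PBS, 12 h) and -3.79, -3.10 and -3.73 (RV Mg, 12 h). Within each time the RV Mg levels lay above the RV PBS levels, and the difference was 1.19 (SE 0.19, limma adjusted p = 0.00201). Junb, another AP-1 subunit, was higher by 0.97 (SE 0.18, limma adjusted p = 0.00425), from a low level that was well above background on 3 of 6 RV PBS arrays. With spot medians in place of the dye-normalized signal (normexp background correction, offset 50, no dye normalization), neither gene was called. Junb then differed by 0.14 (limma adjusted p = 0.472) and Ier2 by 0.576, just under 1.5-fold. The other 19 of 21 immediate early genes were not called, and the list's median difference was 0.09, beside -0.03 over all 14544 genes.

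Across the whole array the Cy5 channels did differ. Of 18962 probes tested, 1107 were called (5.84% of those tested), 788 higher and 319 lower in RV Mg. By brightest probe, 593 of 14544 genes were called (4.08%), 350 higher and 243 lower. The median size of a difference was 0.19 over all probes and 0.76 over called probes. The 95% interval lay within 1.5-fold for 12191 of the 18962 probes (64.3%), and for 13904 of the 18962 (73.3%) with the replicate number as a block. The 6 RV Mg and 6 RV PBS values did not overlap for 1434 probes (7.56%), 672 of which were called.

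Probes that answered to the injury were called in the Cy5 difference at a share near that of all probes. On the RV PBS arrays 730 of 18742 probes were called between HI in Cy5 and uninjured mice in Cy3 (3.89%). Of the 708 that were also tested here, 37 were called in the Cy5 difference (5.23%), beside 5.84% of all probes. The interval of the difference lay within 1.5-fold for 285 of these 708 (40.3%), against 64.3% of all probes. The injury probes were thus measured less precisely in this fit, and a similar share of calls does not show that they differed as little. The 522 probes higher after HI, with a median ratio of 0.76, had a median Cy5 difference of -0.09, and the 208 lower probes, with a median ratio of -0.66, had 0.08. The same sets had a median Cy3 difference of 0.49 and -0.40 between titles. These comparisons share arrays, so the values are given side by side only.

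Read the other way, the probes called higher in RV Mg Cy5 had a median ratio of -0.06 on the RV PBS arrays and 0.76 on the RV Mg arrays. Probes called lower had medians of 0.14 and -0.62. Their median Cy3 difference was -0.05 in either set.

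Differences at 3 h and at 12 h ran the same way. The times share no array, but the second slide held arrays of both times. Both contrasts came from the same fit with a shared spread, so the calls at the 2 times are not independent. At 3 h 756 probes were called (3.99%, 641 higher and 115 lower), and at 12 h 574 (3.03%, 345 higher and 229 lower). The split at 12 h turned to 138 higher and 256 lower with spot medians. It turned to 380 higher and 527 lower without the first RV Mg array of 12 h. Of the 756 called at 3 h, 749 (99.1%) kept their sign at 12 h, beside 74% of all probes, with a median size of 0.84 at 3 h and 0.65 at 12 h. Called at both times were 322 probes, 42.6% of the calls at 3 h and 56.1% of those at 12 h. With the replicate number as a block the counts were 1226 at 3 h and 1274 at 12 h, and with an array left out they lay between 284 (without the first RV Mg array of 3 h) and 968 and between 161 (without the second RV Mg array of 12 h) and 907. No probe (0) passed the limma test of whether the difference changed with time. Before adjustment 491 of 18962 (2.59%) lay under 0.05, and the methods' t-test called 180 before and 0 after adjustment. Without the first RV Mg array at 12 h that limma count was 57.

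The time course from 3 h to 12 h was also shared by the titles, which have no array in common. In RV Mg Cy5 246 probes were called between the times (1.3%) and in RV PBS Cy5 192 (1.01%), of which 109 were called in both with the same sign and none (0) in both with opposite signs. Fos was lower at 12 h by 4.03 in RV Mg (limma adjusted p = 0.0116) and by 4.22 in RV PBS (limma adjusted p = 0.0116). Of the 246 probes called in RV Mg Cy5, 241 (98%) had the same sign in RV PBS Cy5. The share of all probes with the same sign was not counted, and over all probes the time courses correlated at r = 0.57. Equally numbered Cy5 pools of both titles deviated together, so the time courses of the titles are not independent. These counts depend on single arrays, and without the first RV Mg array at 12 h they were 1353 and 438. The split by direction turned with the centring. In RV Mg Cy5 it was 138 higher and 108 lower at 12 h, and 70 and 130 under median centring. In RV PBS Cy5 it was 121 and 71, 55 and 145 under median centring, and 86 higher of 191 under quantile normalization.

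Among the genes with large Cy5 differences, Peg10, an imprinted gene derived from a retrotransposon, had -2.50, -2.88 and -3.19 (3 h) and -3.03, -2.84 and -2.64 (12 h) in RV PBS Cy5. In RV Mg Cy5 it had -5.39, -4.99 and -5.65 at 3 h and -5.33, -5.33 and -5.83 at 12 h. The groups were well separated, with a difference of -2.57 (SE 0.15, limma adjusted p = 1.19e-05). In the uninjured mice given MgSO4, on other slides, Peg10 was at -7.35 (3 h) and -6.54 (12 h) in Cy5 and at -6.62 and -6.57 in the Cy3 controls.

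Kitl, the ligand of the Kit receptor, ranged from 0.28 to 0.69 in RV PBS Cy5 (median 0.44). In RV Mg Cy5 it ranged from -1.62 to -0.76 (median -0.96), a difference of -1.59 (SE 0.12, limma adjusted p = 3.65e-05). Ehbp1, which links endocytic traffic to actin, ranged from -1.38 to -0.24 in RV PBS and from -3.01 to -2.45 in RV Mg, a difference of -1.86 (SE 0.18). Syt10, a synaptotagmin of neurons, was lower by 1.53 from a bright level of 4.48 (median, RV PBS). The difference was -1.53 (SE 0.20), and the groups of 6 did not overlap.

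Among the genes called lower, Slc16a14 differed by -1.82, Slc26a1, an anion transporter, by -1.63, and Prm1, a protamine of sperm chromatin, by -1.71. Vmn2r90, a vomeronasal receptor, was called lower, but was well above background on 1 of 6 RV Mg arrays against 6 of 6 RV PBS arrays, so that the size of its difference rests on signals near background. Bpifb3 was above background on no RV Mg array (0 of 6) and on 4 of 6 RV PBS arrays, which gives at least 1.61-fold lower (limma adjusted p = 0.0461). It passed the filter through RV PBS alone, and the call was lost under median centring, quantile normalization, 4 group means and without the filter.

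In the other direction, Dstyk, a dual-specificity kinase, was higher in RV Mg without overlap. Its Cy5 levels ran from -5.16 to -4.71 in RV PBS (median -4.82) and from -3.41 to -3.13 in RV Mg (median -3.32). The difference was 1.58 (SE 0.09, limma adjusted p = 1.19e-05). Rprd1b, which binds RNA polymerase II, ranged from -1.45 to -0.80 in RV PBS and from 0.11 to 0.62 in RV Mg. That probe gave 1.49 (SE 0.13), while the other Rprd1b probe gave -0.50. Egln1, an oxygen-sensing hydroxylase that marks HIF for destruction, was higher by 1.34 (SE 0.24, limma adjusted p = 0.00338).

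Several of the largest positive differences lay at the edge of detection. Mroh1 was above background on 5 of 6 RV Mg and 0 of 6 RV PBS arrays, at least 1.62-fold higher. Sema3d, a guidance factor for axons, was at least 1.53-fold higher, Rerg at least 1.77-fold and Mppe1 at least 1.68-fold, each with 0 of 6 RV PBS arrays above background. Mroh1, Sema3d, Rerg and Mppe1 passed the filter through RV Mg alone. With the spot medians their differences were 0.18, 0.06, 0.09 and 0.04 in that order, and none was called. Acyp2, Usp35 and Pcdhb5 were called higher but were above background on 1 of 6 RV PBS arrays each, and their values overlapped between titles. The call of Acyp2 was also lost under median centring, quantile normalization, 4 group means, the slide as a block, without the filter and with outlier spots kept. The sign of Acyp2 and Pcdhb5 turned when the spot medians were used. The calls of Acyp2, Usp35, Pcdhb5 and Bpifb3 were each lost when certain single arrays were left out. The genes Cela2a, at -0.40 (limma adjusted p = 0.555), and Gm20877, at -0.30 (0.428), were not called.

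**Figure D3:**
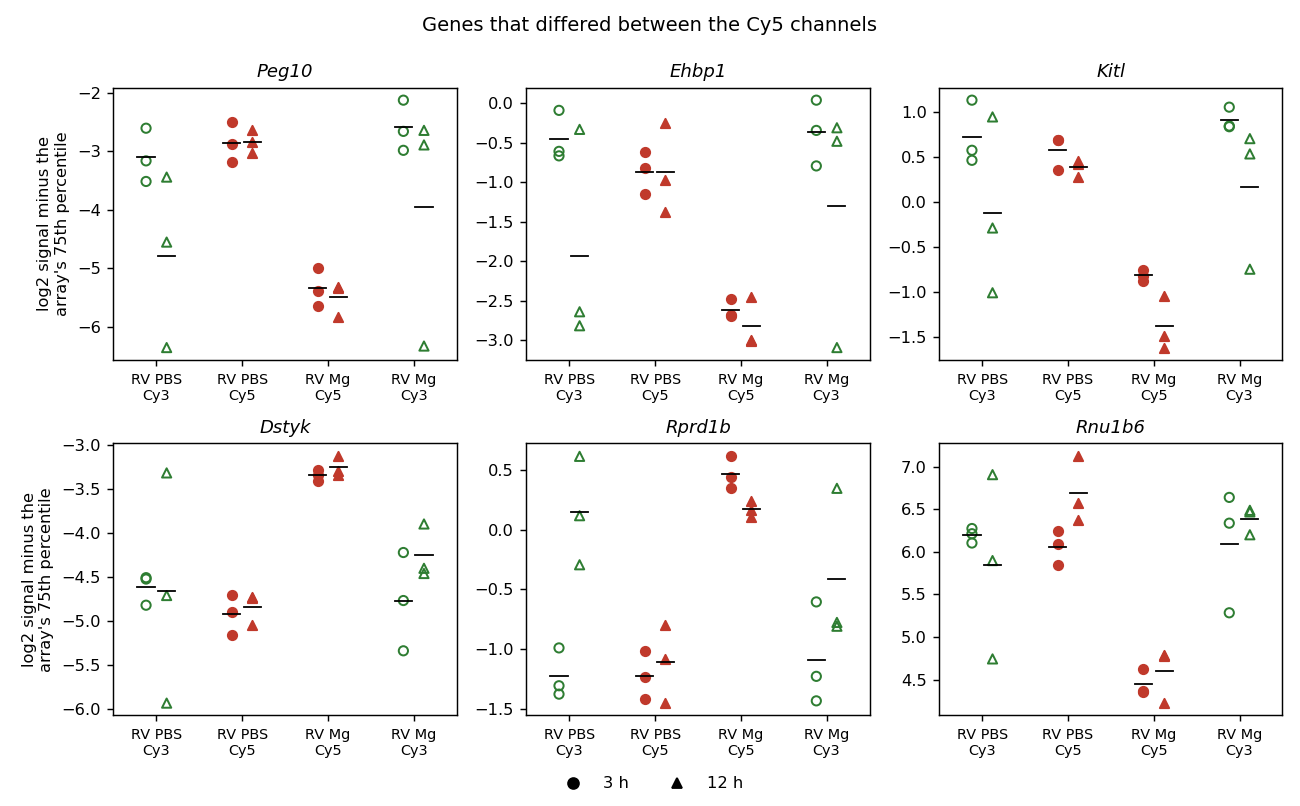
Level (log2 signal minus the array's 75th percentile) of Peg10, Ehbp1, Kitl, Dstyk, Rprd1b and Rnu1b6 in each channel of the 12 arrays, with symbols as for the injury genes. In Cy5 (filled) the RV Mg arrays stand apart from the RV PBS arrays at both times, and in Cy3 (open) a few 12 h arrays leave the others.

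Small non-coding RNAs and histones were grouped after their values were seen and therefore get no test. Rnu1b6, a U1 small nuclear RNA of the spliceosome, ranged from 5.85 to 7.13 in RV PBS Cy5 and from 4.22 to 4.78 in RV Mg Cy5 (difference -1.85). Rnu2-10, a U2 RNA, differed by -1.48 and the U3 nucleolar RNA Rnu3b1 by -0.81, whereas Rnu12 differed by 0.02. These transcripts carry no poly(A) tail.

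Replication-dependent histones, whose transcripts also end without a poly(A) tail, were called lower in 18 of 36 genes tested and higher in 1, where 4.08% of all genes were called. Their median difference was -0.60, beside -0.03 over all genes. Because the list was made after its values were seen, these figures describe it and do not test it against all genes. H4c17 differed by -1.43, H1f1 by -1.30, H1f5 by -1.27 and H3c13 by -1.07, and the others ran up to 0.67 for H3c3, whose call was lost under median centring (limma adjusted p = 0.0514) and without certain single arrays. H3c7 (0.47), H2bc21 (0.27) and H2ac1 (0.23) also lay above 0 and were not called. In Cy3 the median of the list was -0.21, and no histone was called (0 of 36). Many histone genes are near-identical copies, so that probes can read more than 1 of them. How RNA quality or the primers of the labelling bear on these transcripts was not tested.

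Over all genes 4.08% were called by their brightest probe, which is the background for the lists that follow. None of 14 chemokines and cytokines was called (0), with a median of -0.11 and a range from -0.45 to 0.25, whereas in Cy3 the median was 1.49 with 6 of 13 called higher. Of 15 interferon-induced genes only Ifitm3, a membrane protein that restricts virus entry, was called. It ranged from 1.40 to 2.19 in RV PBS and from 0.37 to 1.24 in RV Mg, without overlap, and the difference was -0.97 (SE 0.18). The other 14 were not called, and the median of the list was -0.11.

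None of 11 heat shock genes (median -0.02) and none of 16 hypoxia response genes (median -0.06) was called. In the hypoxia list the highest difference was 0.27 and the lowest -0.39, and 12 of 16 intervals lay within 1.5-fold. Among 13 reactive glia genes only Gfap, the intermediate filament of astrocytes, was called. It had 0.45, 0.22 and 0.64 (3 h) and 1.60, 1.78 and 1.90 (12 h) in RV PBS, and -0.31, -0.61 and -0.15 and 0.84, 1.02 and 1.33 in RV Mg, so that it was lower within each time, by 0.75 overall. The difference of -0.75 had an SE of 0.12 and a limma adjusted p of 0.00167, and the other Gfap probes gave -0.39 and 0.05 and were not called. Vim, another filament of reactive astrocytes, differed by -0.05.

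Genes of cholesterol synthesis and of the synapse are among those the study connects with MgSO4. None of 21 cholesterol synthesis genes was called (median -0.07, 19 of 21 intervals within 1.5-fold). Of 43 synaptic genes 2 were called (4.65%). Gria2, a subunit of AMPA receptors, was higher by 0.81 (SE 0.10) without overlap of the groups, and its other probe gave 0.07. Grin1, the obligatory subunit of NMDA receptors, had a difference of -0.70 (SE 0.16), while its other probe gave 0.59. The other 41 synaptic genes were not called, and the median was -0.14. Rictor, at 0.48 (limma adjusted p = 0.0143), and Fmr1, at 0.30 (0.0151), were below 1.5-fold and were not called. The other Fmr1 probes had the opposite sign, at -0.49 and -0.23, and were not called either.

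Of 18 imprinted genes 5 were called (27.8%, beside 4.08% of all genes), 2 higher and 3 lower. Snrpn, a splicing factor, was higher by 0.80 (SE 0.09) and Ube3a, a ubiquitin ligase, by 0.68 (SE 0.08), both without overlap of the groups. Peg10 is given above. Igf2, a growth factor that meninges and choroid plexus secrete, was lower, with a difference of -0.91 (SE 0.24), and Grb10, an adaptor of insulin signalling, with -0.71 (SE 0.15). The median of the list was -0.02.

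The large housekeeping lists had medians slightly below that of all genes. Ribosomal protein genes had a median of -0.21 with 0 of 82 called, and the list's Cy3 median was -0.20. The respiratory chain had a median of -0.22 with 2 of 83 called, among them Cox6b2 at -0.61. The proteasome had -0.08 with 0 of 45 called.

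**Figure D4:**
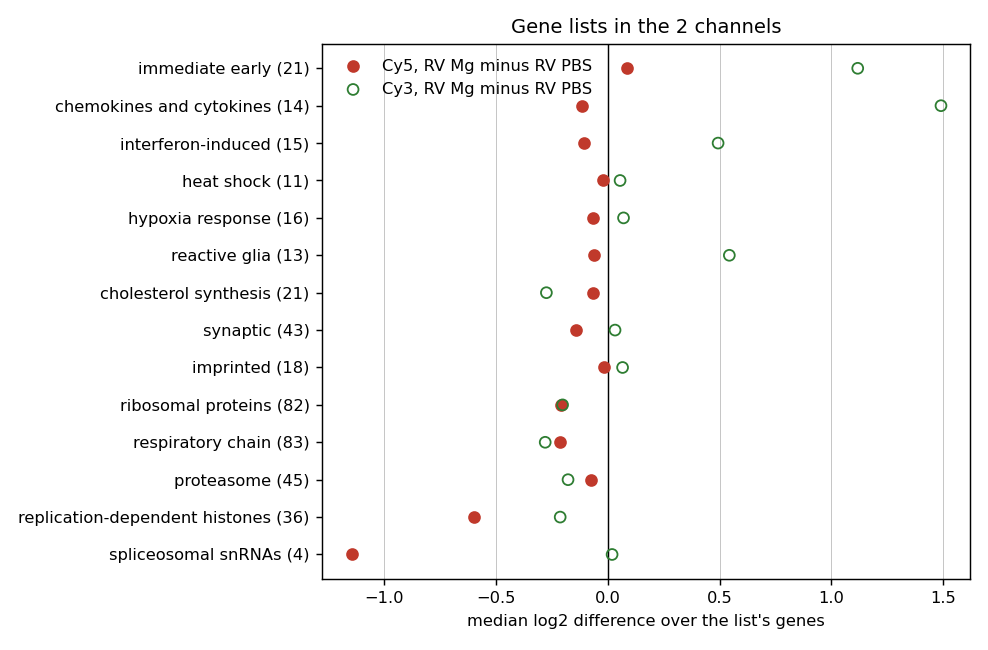
Median difference RV Mg minus RV PBS (log2) over the genes of each list in Cy5 (filled red) and Cy3 (open green), with the number of genes tested in parentheses. The spread within lists is not drawn. Immediate early genes and chemokines are near 0 in Cy5 (0.09 and -0.11) and high in Cy3 (1.12 and 1.49), and the histones and small RNAs, listed after their values were seen, are low in Cy5.

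Markers of the cells that make up the hemisphere held 0 or 1 called gene per list, beside 4.08% of all genes. Of 12 neuron markers and 12 microglia markers none was called (median -0.02 and -0.08). The mean level of the neuron markers ran from 2.91 to 3.21 over RV PBS Cy5 and from 2.78 to 3.24 over RV Mg Cy5. Slc4a4, of 10 astrocyte markers, Mag, of 11 oligodendrocyte lineage markers, and Kdr, of 12 endothelial markers, were called lower, at -0.59, -0.66 and -0.64. The other Kdr probe gave 0.19 and was not called. The calls of Mag and Kdr were lost without certain single arrays, and that of Kdr also under quantile normalization. Slc4a4 had another probe called lower at -0.69 and a dim one, at a mean level of -5.10, called higher at 0.95. The call of its brightest probe was lost when any of 9 of the 12 arrays was left out.

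Blood and meninges genes held 2 calls, both lower in RV Mg. The 7 blood genes had a median of -0.31 with none called, a mean level from 1.85 to 2.88 in RV PBS and from 1.39 to 2.36 in RV Mg, and Hbb-bs, a beta globin, differed by -0.83 (limma adjusted p = 0.0652). Of 8 meninges genes Col1a2, a collagen chain, and Igf2 were called lower, at -0.79 and -0.91, and Lum differed by 0.47. Each call was lost in 3 of the 12 fits that left out an array, with limma adjusted p between 0.0532 and 0.0586. In bulk tissue fewer cells of a type and less RNA per cell cannot be told apart.

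Called markers of the striatum and of the thalamus went both ways. Of 8 striatum genes Drd2, a dopamine receptor, was higher by 0.74 and Ppp1r1b lower, at -0.60. With the spot medians they differed by 0.03 and -0.50 and were not called. The call of Ppp1r1b was also lost under quantile normalization and without certain single arrays. Of 6 thalamus genes Calb2 was higher by 0.72 and Tcf7l2 lower, at -0.84, while 2 further Tcf7l2 probes gave 0.43 and -0.0011. None of the 6 cortex, 6 hypothalamus (median -0.34) or 4 midbrain and hindbrain genes was called, nor any of 8 choroid plexus genes. The hypothalamus genes all lay below 0, from -0.67 to -0.02 in Cy5 and from -0.52 to -0.13 in Cy3. Of the sex markers the Y-linked Eif2s3y was higher in RV Mg Cy5 by 0.62 (limma adjusted p = 0.00361). Ddx3y differed by 0.11, and Xist, which silences the X chromosome of females, by 0.50 (limma adjusted p = 0.0101, under 1.5-fold).

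Called probes were mostly dim. In the dimmest eighth of the probes 11.4% were called, 80% of them higher in RV Mg, and in the brightest eighth 1.9%, of which 13.3% were higher. The median difference went from 0.08 in the dimmest to -0.11 in the brightest probes. With spot medians, normexp background correction (offset 50) and no dye normalization, 391 probes were called (198 higher and 193 lower, 50.6% higher against 71.2%). Of these, 334 were among the 1107. Among the probes brighter than the median 239 were called in this way against 267, with 187 in common. Among the dimmer ones 152 were called against 840, with 147 in common. An offset narrows log2 differences of dim probes by construction. Spot summary, background correction with its offset and dye normalization changed together here, and their separate parts were not tested.

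Different probes of a gene agreed poorly. Over 3696 genes with several probes the differences of the brightest and the next probe correlated at r = 0.19, as a description across genes. For the ratio of Cy5 to Cy3 on the RV PBS arrays the same correlation was 0.50. Of 123 genes called by their brightest probe, the next probe had the same sign in 87 (70.7%), with a median of 0.21 against 0.73. Both probes were called with the same sign in 26 genes, among them Wdr45b at 1.21 and 1.34. In 5 genes they were called with opposite signs, namely Tox4, Mdm4, Pum2, Stk4 and Dnm1. On the RV PBS ratio that count was 0 of 109.

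The probes called in Cy5 were then read in the Cy3 channels, which the comparison did not use. For each channel the median of the called-lower probes was subtracted from the median of the called-higher probes, each relative to the mean of the 12 arrays in that dye. This gap was 0.69 to 0.92 in RV Mg Cy5 and -0.98 to -0.70 in RV PBS Cy5, which is how the probes were chosen. In Cy3 at 3 h it lay between -0.27 and 0.14 on all 6 arrays. At 12 h it was 0.83 on the third RV PBS array, 0.71 on the third RV Mg array and 0.24 on the second RV PBS array, against -0.53, -0.30 and -0.26 on the other arrays.

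In these 3 Cy3 channels, which the titles name as uninjured mice with or without MgSO4, the probes stood in the order of the RV Mg Cy5 channels. Ehbp1 stood there at -2.82, -2.64 and -3.09, and between -0.79 and 0.04 in the other 9 Cy3 channels. Kitl stood at -0.29, -1.01 and -0.75 against 0.46 to 1.14 in the others. Peg10 stood at -6.36, -4.55 and -6.33 against -3.51 to -2.12. All 3 channels were on the same slide, whose remaining Cy3 channel had the opposite order. Fos in the 2 RV PBS channels among them was at -4.22 and -4.23, the level of uninjured mice. On the 8 arrays of uninjured mice given MgSO4 at 3 h and 12 h, the same gap, taken in the ratio of Cy5 to Cy3, lay between -0.15 and 0.25, a range that takes in the 0.24 of the second RV PBS array. What the 3 channels have in common was not tested.

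**Figure D5:**
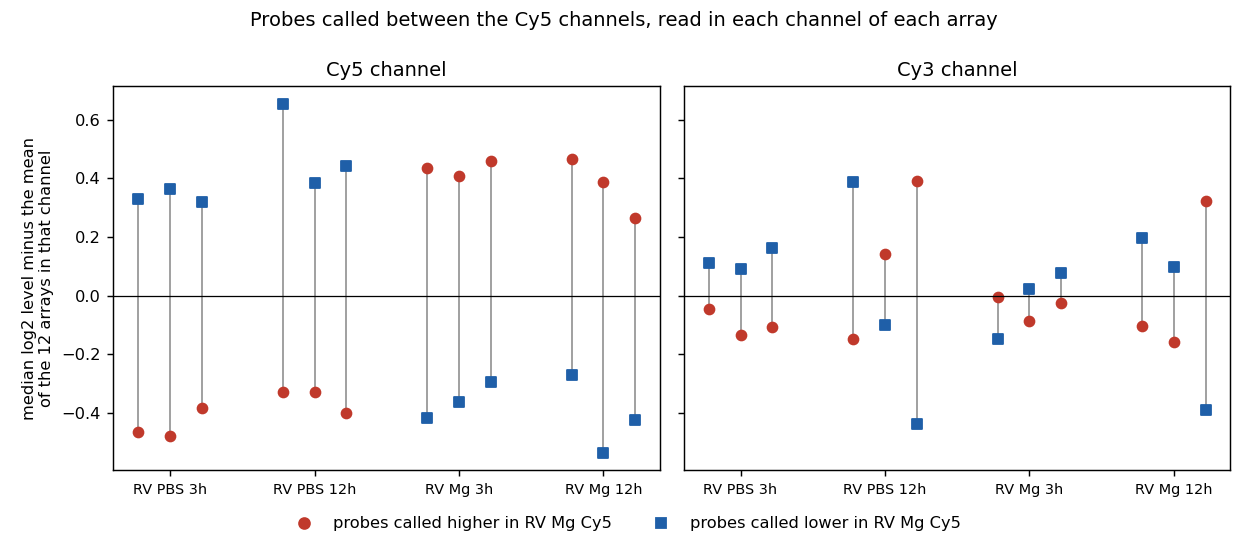
Median level of the 788 probes called higher (red circles) and the 319 called lower (blue squares) in RV Mg Cy5, read in each array's Cy5 (left) and Cy3 (right) channel relative to the mean of the 12 arrays in that channel (log2). In Cy5 the order of both sets fixes the calls. In Cy3 the order of RV Mg Cy5 returns on 3 of the 12 h arrays, with gaps of 0.24, 0.83 and 0.71.

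Distances between whole arrays depended on the pairing of numbers. The median absolute difference between Cy5 channels of the same title and time was 0.18 in either title, always between different numbers. It was 0.21 between titles for arrays of the same number and 0.26 for arrays of other numbers. Between the Cy3 channels of both titles it was 0.22 for the same number and 0.29 for other numbers. Which RNA the RV Mg arrays carry in Cy5, and whether MgSO4, the labelling or the hybridization set these probes apart, cannot be told apart in this design.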

How the data were processed

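The authors labelled 100 ng of RNA per sample, co-hybridized a Cy3 and a Cy5 sample to Agilent 4 x 44K arrays and read the spot signals in Feature Extraction 10.5.1.1. The deposited intensities are background-subtracted and dye-normalized within the array (linear and LOWESS), so a Cy5 signal depends in part on its Cy3 partner. Flagged non-uniform and outlier spots were left out (96 to 329 an array), spots of a probe were averaged, and log2 signals were centred on the array's 75th percentile. Probes were named through their RefSeq accession (27427 of 39429 had 1 symbol), symbols with Rik were left out, and probes well above background on at least 4 of 6 arrays of either title were tested (18962 in Cy5). A gene is represented by its brightest probe. R 4.3.3 with limma 3.58.1 was used, after a test on simulated data. Other contrasts were made over the 4 means of title and time, and levels set across slides (uninjured mice given MgSO4) were not tested. Array number limits the precision.

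Named genes are the 10 largest called differences in each direction, called members and first-written examples of the lists, genes that earlier results name, the 5 largest Cy3 differences and genes the study ties to MgSO4. Members and lists were chosen with earlier results of these data known. The histone and small RNA lists, and the comparison of replicate deviations, were added after values were seen. Of the deposited series table no column was used (0).

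Replicate numbers come from the titles' letters. In Cy5, deviations of same-numbered arrays correlated at 0.25 to 0.55 over all probes in 6 of 6 pairs (-0.37 to 0.07 for other numbers), so the numbers were taken to pair the samples. In Cy3 the same-numbered arrays, which are neighbours on a slide, correlated at -0.14 to 0.40 (-0.38 to 0.20 for other numbers). The Cy3 value was over 0.1 in 5 of 6 pairs.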

Additional observations from a re-analysis of the deposited data

Results flagged for a closer look

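In the Cy5 channels of uninjured mice given MgSO4, which served as the level without injury, 2 of 10 groups of 4 arrays (5 genes at 2 times) held an array far from the others. Chance alone marks about 1 group in 20. Ccl4 at 3 h had -5.72 on 1 array and -4.68, -4.58 and -4.63 on the others. Cxcl10 at 12 h had -4.83 on 1 array and -7.02, -7.20 and -7.35 on the others. With or without these arrays, the levels of both genes lay below every Cy5 level of the injured pools.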

How the results depend on the processing

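The Cy5 difference between titles had between 989 and 1174 called probes when any array was left out, and the replicate block gave 1232, with 1098 of the 1107 among them. It gave 391 with the spot medians and 3263 without the minimum fold. At 3 h the 756 calls became 373 with the spot medians, 1226 with the replicate block and 1265 with the methods' t-test unadjusted. With an array left out they lay between 284 and 968. They were 284 to 404 without any of the 6 arrays of 3 h, lowest without the first RV Mg array. At 12 h the 574 became 1274 with the replicate block, 1171 with the slide as a block, 1284 with the unadjusted t-test and 161 to 907 (161 and 907 without the second and the first RV Mg array of 12 h, 341 without the second RV PBS array of 12 h and 364 without the first RV Mg array of 3 h). The change of the difference with time gave 180 with the unadjusted t-test and 0 to 57. The 75 calls of the Cy3 difference were the least stable. They became 6 after median centring, 14 after quantile normalization, 10 with spot medians, 5 without the filter and 2 with the replicate block. The slide as a block gave 15, 4 group means gave 167, and the t-test gave 400 and 5 before and after adjustment. With an array left out the count was 3 to 367, each of the 12 arrays moving it by over 1.5 times. The RV Mg time course (246) gave 21 with the slide as a block, 1082 and 157 with the t-test before and after adjustment and 42 to 1353 with an array left out (1353 without the first RV Mg array of 12 h, 42 to 160 without any other RV Mg array or the third RV PBS array of 3 h). That of RV PBS (192) gave 382 with spot medians, 119 without the filter, 72 with the slide as a block and 985 and 97 with the t-test. With an array left out it gave 14 to 438. It was 438 without the first RV Mg array of 12 h, 14 without the second RV PBS array of 3 h, and 26 to 121 without 6 further arrays. No paired analysis was possible for the time courses because time and pair are nested. For the RV Mg ratio (main 1485) spot medians gave 3188 (330 higher), no minimum fold 5732, and leaving an array out 1266 to 1765. For the RV PBS ratio (main 730) these were 1996 (254 higher), 5373 and 549 to 1171, highest without the third array at 12 h. Among single genes 2 reversed, Acyp2 to -0.0077 and Pcdhb5 to -0.0501, both with spot medians. The replicate block ended only the call of Pcdhb5 (limma adjusted p = 0.0553). The spot medians also ended the calls of Ier2, Junb, Mroh1, Sema3d, Rerg, Mppe1, Usp35, Dstyk, Egln1, Vmn2r90, Bpifb3, Gria2 and Ube3a. They likewise ended those of Drd2, Ppp1r1b, Calb2, Eif2s3y, Cox6b2, Slc4a4 and H2bc3. The causes were not tested.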
